A study of Mus musculus with 3 samples.

Results

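The iron genes of the small-intestinal epithelium described here were *Cybrd1*, *Slc11a2*, *Slc40a1*, *Heph*, *Tfrc*, *Trf*, *Fth1*, *Ftl1* and *Hmox1*. They were chosen by name, 9 of the 27998 genes counted, and partly because *Cybrd1* was already known to differ widely between the enterocytes of the libraries, so that difference is a description and supports nothing. Single-cell RNA sequencing had been performed on sorted EpCAM+ cells, which are epithelial, with 1 library from each of 3 genotypes. The study asked what loss of *Lef1* changes in adenomas that lack *Apc*. All 3 mice were of the C57BL/6 strain and received 2 doses of 2 mg of tamoxifen at 7 to 8 weeks of age. The paper states that its Lef1 fl/fl line was of mixed background before it was backcrossed to C57BL/6. The WT mouse is labelled only as wild type, so whether it carried a Cre is not given in the sources used here, and its cells were taken on day 21 after tamoxifen. The *LApc* mouse was Lgr5-CreERT2;Apc fl/fl and its cells were taken on day 29. The *LApcL* mouse had both of these and in addition Lef1 fl/fl, and its cells were taken on day 21. In both Cre lines the recombinase is driven by the *Lgr5* locus, which is active in crypt stem cells, so recombined and normal epithelium were sorted together, when the mice met the criteria for euthanasia. Genotype cannot be told apart from mouse or library, nor for *LApc* from day, and neither the reagent kit nor the stretch of intestine of each library is given in the sources used here.

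Dietary iron is reduced at the brush border of the enterocyte by Cybrd1, a ferric reductase, and enters the cell as ferrous iron through Slc11a2, the proton-coupled transporter also called DMT1. Inside the cell it is stored in ferritin, built of the heavy chain Fth1 and the light chain Ftl1, or leaves at the basolateral side through Slc40a1 (ferroportin), the only known iron exporter of mammals, with the ferroxidase Heph (hephaestin) beside it. Tfrc, the transferrin receptor, takes up iron bound to transferrin (encoded by *Trf*) and is highest in dividing cells, and Hmox1 (heme oxygenase 1) releases iron from heme.

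Part of this family is known for iron-responsive elements, hairpins in the untranslated ends of the mRNA that bind iron regulatory proteins when iron is scarce. At the 5′ end the bound protein lowers translation and at the 3′ end it protects the mRNA, so ferritin protein can change where its transcript, the quantity counted here, does not. The hairpins are shown since they are what part of the family shares in sequence, and a count of transcripts does not show their effect on translation. They were searched on the sense strand of the annotated untranslated regions (GENCODE M21, GRCm38) as a loop of 6 bases reading CAGTG and then not G, closed by 5 pairs (G with U allowed), with an unpaired C 6 bases before the loop. The capitals mark the loop, and each window has 30 bases.

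*Slc40a1*, 5′ untranslated region, chr1:45925464-45925493, minus strand: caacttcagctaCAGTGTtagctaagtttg
*Fth1*, 5′ untranslated region, chr19:9982732-9982761, plus strand: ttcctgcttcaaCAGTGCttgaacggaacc
*Ftl1*, 5′ untranslated region, chr7:45459778-45459807, minus strand: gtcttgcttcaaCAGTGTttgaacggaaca
*Tfrc*, 3′ untranslated region, chr16:32631219-32631248, plus strand: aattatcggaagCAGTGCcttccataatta
*Tfrc*, 3′ untranslated region, chr16:32631598-32631627, plus strand: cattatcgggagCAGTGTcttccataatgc
*Tfrc*, 3′ untranslated region, chr16:32631663-32631692, plus strand: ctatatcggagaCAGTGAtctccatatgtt
*Tfrc*, 3′ untranslated region, chr16:32631710-32631739, plus strand: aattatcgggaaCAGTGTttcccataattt

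The pattern was found in 4 of the 9 genes, against 222 of 21901 protein-coding genes (1.01%). The ferritin genes and *Slc40a1* each have 1 window at the 5′ end, and *Tfrc* has 4 in 1 untranslated region at the 3′ end. A match describes the letters and is not evidence of a working element, and nothing is drawn from the genes without a match.

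The libraries held 79696291 to 191509615 unique molecular identifiers (UMIs, each marking 1 captured RNA molecule), the fewest in *LApc*, and 10136 (WT), 9598 (*LApc*) and 14389 (*LApcL*) cells were used. Pairs of libraries shared 214 to 318 cell barcodes. Enterocyte-like cells numbered 2768, 3550 and 1710 (27.3%, 37.0% and 11.9% of each library), and the 16 enterocyte markers summed to 39774, 63520 and 39800 CPM in them. Adenoma-enriched cells, the subclusters of Wnt/TA-like cells that WT barely entered, numbered 2, 1250 and 9138, and the WT ones were not compared. Other Wnt/TA-like cells, the remaining named subclusters, numbered 3021, 2169 and 1318. In them the 16 enterocyte markers summed to 4081, 5087 and 2512 CPM. The 9 adenoma genes summed to 4.05, 17.7 and 106 CPM there, so whether all of these cells are normal is not known. Median UMIs per enterocyte-like cell were 9690.5, 6203 and 8130.5, with median mitochondrial shares of 6.61%, 8.00% and 6.09%. *Apc* counts were not lower in the floxed libraries (16.6, 23.7 and 32.5 CPM over all cells), and *Lef1* in adenoma-enriched cells was 21.4 CPM (*LApc*) and 3.59 CPM (*LApcL*); reads outside a deleted part are counted too, so *Apc* does not check its label.

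Levels are given as CPM, the UMIs of a gene per 1000000 UMIs of the summed cells of a class. The intervals given are exact, at 95%, and hold for counting error alone. With 1 library per group no test was possible, and a gene is called past 2-fold when its log2 ratio of CPM was at least 1 in size and its mean over both sides at least 10 CPM. Levels of different genes are not compared, since capture differs between transcripts.

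**Figure D1:**
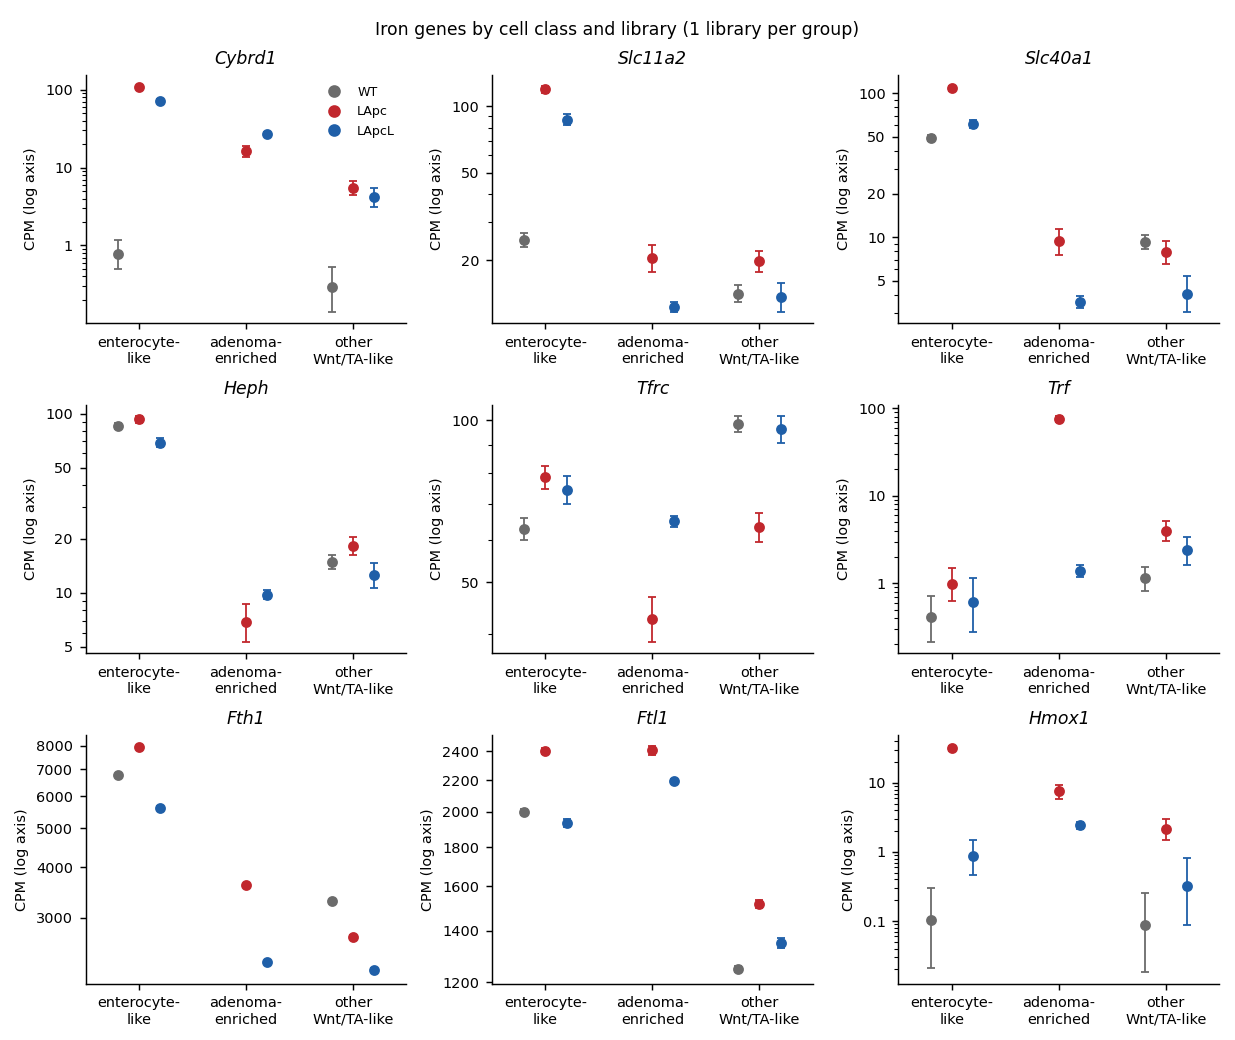
Level in CPM (log axis) of each of the 9 genes in enterocyte-like, adenoma-enriched and other Wnt/TA-like cells, 1 point per library with its exact 95% Poisson interval. *Cybrd1* runs from 0.788 CPM in WT enterocyte-like cells to 108 CPM in *LApc*, and *Trf* reaches 76.0 CPM only in *LApc* adenoma-enriched cells.

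The genes of apical iron uptake stood higher in enterocyte-like cells of both mutant libraries than in those of WT, the ferritin and *Tfrc* levels differed by less than 2-fold, and *Hmox1* stood apart in *LApc*. For *LApc* over WT, 8 of the 9 genes passed the filter on low values, and 4 were past 2-fold, all higher, where 1.74% of all genes tested were past 2-fold higher and 1.17% lower. For *LApcL* over WT, 2 of 7 were past 2-fold, both higher (1.38% of all genes higher, 1.51% lower). For *LApcL* over *LApc*, 1 of 8 was past 2-fold and it was lower (1.44% higher, 1.08% lower). Since the choice of genes used these contrasts, nothing is read from the counts. The median log2 ratios of the genes that passed were 0.73, 0.24 and -0.48, beside -0.05, 0.02 and 0.05 over all genes tested. Scaling by TMM (trimmed mean of M values) shifted the comparisons of *LApcL* by 0.11 and 0.12, and 38.0% in place of 47.7% and 41.3% in place of 57.2% of the called genes were then the higher ones, with the counts of members the same. Markers of other cell types differed between the libraries in these cells as well. The 8 goblet genes summed to 9528 (WT), 4513 (*LApc*) and 2844 (*LApcL*) CPM, the 7 Paneth genes to 4157, 1244 and 1362 CPM and the 9 adenoma genes to 1.58, 14.9 and 108 CPM, with at least 7 of the last detected in each library. Their part in the differences was not tested.

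*Cybrd1* (chr2:71117923-71142926, plus strand) was almost absent from WT enterocyte-like cells, at 0.788 CPM (0.499 to 1.18, 23 UMIs). It was at 108 CPM (104 to 112) in *LApc* and at 72.8 CPM (68.5 to 77.2) in *LApcL*. The log2 ratios were 7.10 (6.51 to 7.76) for *LApc* over WT, 6.53 (5.94 to 7.19) for *LApcL* over WT and -0.57 (-0.67 to -0.47) between the mutant libraries. The mutant libraries were therefore close to each other beside their distance from WT. In order of level, the next were adenoma-enriched cells of *LApcL* (27.4 CPM) and of *LApc* (16.2 CPM), then other Wnt/TA-like cells of *LApc* and *LApcL* (5.53 and 4.23 CPM, with overlapping intervals). WT enterocyte-like and other Wnt/TA-like cells (0.292 CPM) were last, and their intervals overlapped too.

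*Slc11a2* (chr15:100387898-100425072, minus strand), the transporter that takes up the iron Cybrd1 reduces, was at 24.7 CPM (22.9 to 26.6) in WT, 119 CPM (115 to 124) in *LApc* and 87.0 CPM (82.3 to 91.9) in *LApcL* enterocyte-like cells. Both mutant libraries lay above WT without overlap of the intervals. The log2 ratios to WT were 2.27 (2.15 to 2.39) and 1.82 (1.68 to 1.95), and *LApcL* over *LApc* was -0.46 (-0.55 to -0.36).

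*Slc40a1* (chr1:45908068-45926523, minus strand), the basolateral exporter, was at 48.9 CPM (46.3 to 51.5) in WT, 108 CPM (104 to 113) in *LApc* and 61.5 CPM (57.6 to 65.7) in *LApcL*. Its log2 ratio of *LApc* over WT, 1.15 (1.05 to 1.24), was just past 2-fold, and that of *LApcL* over WT was 0.33 (0.21 to 0.45). The call for *LApc* was lost when cells above 10% mitochondrial UMIs were left out (log2 ratio 0.37) and when both libraries were set to a common mix of intestinal regions (0.96). *Heph* (X:96455359-96574485, plus strand), its ferroxidase partner, was at 85.1 CPM in WT, 92.9 CPM (*LApc*) and 68.9 CPM (*LApcL*), and so did not follow *Slc40a1*. Its log2 ratios to WT were 0.13 (0.04 to 0.21) and -0.30 (-0.41 to -0.20).

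*Hmox1* (chr8:75093621-75100589, plus strand), the heme-degrading enzyme, separated the mutant libraries. It had 3 UMIs in WT enterocyte-like cells (0.103 CPM, 0.0212 to 0.300), 703 in *LApc* (31.6 CPM, 29.3 to 34.0) and 13 in *LApcL* (0.874 CPM, 0.466 to 1.495). The log2 ratio was 8.26 (6.71 to 10.55) for *LApc* over WT and -5.18 (-6.09 to -4.39) for *LApcL* over *LApc*. With cells above 10% mitochondrial UMIs left out, *LApc* was at 16.9 CPM and *LApcL* at 0.154 CPM, and *Hmox1* then fell under the filter on low values, so that its calls against WT and *LApcL* ended. Macrophages also use *Hmox1*. The 8 macrophage markers summed to 0.582 (WT), 1.66 (*LApc*) and 0.942 (*LApcL*) CPM in these cells, and 5, 6 and 3 of them had UMIs. *Csf1r* was at 0 in all 3 libraries, and *C1qb* and *C1qc* had UMIs in *LApc* alone. The part of macrophage RNA in the *Hmox1* values was not tested.

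The ferritin genes moved little between the libraries. *Fth1* (chr19:9980598-9985098, plus strand) was at 6772 CPM in WT, 7937 CPM (*LApc*) and 5620 CPM (*LApcL*). *Ftl1* (chr7:45457944-45459884, minus strand) was at 1999, 2401 and 1935 CPM in the same order. *LApc* was the highest library for both chains, and all 6 log2 ratios lay between -0.50 and 0.26. Set to a common mix of intestinal regions, *Fth1* was highest in WT, at 7837 CPM, against 7556 CPM (*LApc*) and 5379 CPM (*LApcL*). *Ftl1* kept its order there, at 2101, 2351 and 1920 CPM. The annotation names 2 pseudogenes of *Fth1* and 1 of *Ftl1*, and reads shared with such copies may have been lost, so these counts are uncertain.

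*Tfrc* (chr16:32608920-32632794, plus strand) was at 62.8 CPM (60.0 to 65.7) in WT, 78.3 CPM (74.7 to 82.1) in *LApc* and 74.2 CPM (69.9 to 78.8) in *LApcL*. The mutant libraries had overlapping intervals, both above WT, with log2 ratios to WT of 0.32 and 0.24. *Trf* (chr9:103204001-103230444, minus strand) had 12, 22 and 9 UMIs in enterocyte-like cells, under 1 CPM in each library, and did not pass the filter.

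**Figure D2:**
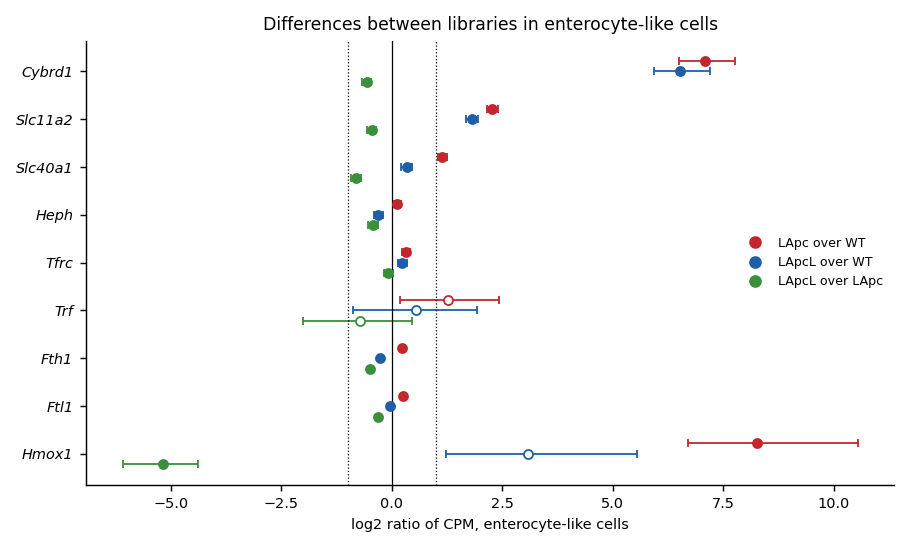
Log2 ratio of CPM between libraries in enterocyte-like cells for each gene, with the exact 95% interval. Filled points passed the filter on low values, open points did not, and the dotted lines mark 2-fold. *Cybrd1*, *Slc11a2*, *Slc40a1* and *Hmox1* lie past 2-fold in *LApc* over WT, and *Cybrd1* and *Slc11a2* also in *LApcL* over WT.

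The enterocyte-like cells formed 3 clusters, led by *Apoa4* (a lipoprotein gene of villus enterocytes), by *Reg1* and by *Fabp6* (the ileal bile acid binding protein). In the *Apoa4*-led cluster *Cybrd1* was at 2.503 CPM in WT, 362 CPM (*LApc*) and 275 CPM (*LApcL*), against 0.434, 15.9 and 13.7 CPM in the *Reg1*-led and 0.112, 5.49 and 5.05 CPM in the *Fabp6*-led cluster. WT was the lowest library in each cluster, and the intervals of the mutant libraries overlapped in the *Reg1*-led and *Fabp6*-led ones. *Slc11a2* in the *Apoa4*-led cells was at 25.2, 270 and 195 CPM and *Slc40a1* at 40.4, 254 and 128 CPM. There the log2 ratios of *LApc* over WT were 3.42 for *Slc11a2* and 2.65 for *Slc40a1*. The *Fabp6*-led cells went another way. *Slc40a1* there was highest in WT, at 60.6 CPM (55.6 to 65.9), against 35.8 CPM (30.9 to 41.3) in *LApc* and 22.2 CPM (17.2 to 28.3) in *LApcL*, which turned the direction of its ratios. *Slc11a2* in those cells was at 21.3, 29.7 and 20.2 CPM, and with *Cybrd1* under the filter 0 members were past 2-fold for *LApc* over WT in that cluster.

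The *Apoa4*-led cells were also the ones with the lowest depth and the highest mitochondrial share. Their median UMIs were 8536 (WT), 4611.5 (*LApc*) and 6376.5 (*LApcL*) and their median mitochondrial shares 8.86%, 11.5% and 8.99%. The 9 dissociation stress genes summed to 389, 594 and 618 CPM there. The part of these values in the differences was not tested. With cells above 10% mitochondrial UMIs left out, *Cybrd1* was at 0.519 CPM in WT, 31.1 CPM (*LApc*) and 35.5 CPM (*LApcL*), and *Slc11a2* at 24.2, 70.7 and 65.3 CPM. The log2 ratios of *LApc* over WT were then smaller, 5.91 in place of 7.10 for *Cybrd1* and 1.55 in place of 2.27 for *Slc11a2*, and *LApcL* was then the highest library for *Cybrd1*.

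*Heph*, *Hmox1*, the ferritins and *Tfrc* also differed between the clusters. *Heph* was highest in the *Apoa4*-led cells, at 135, 151 and 138 CPM, with overlapping neighbours in the 3 libraries. *Hmox1* in these cells had 0 UMIs in WT, which allows up to 0.469 CPM, against 97.7 CPM (*LApc*) and 3.19 CPM (*LApcL*). The *LApc* level was at least 7.70 higher on the log2 scale against that limit. *Tfrc* had its lowest levels there, 33.9, 35.9 and 36.8 CPM, and its highest in the *Reg1*-led cells, 81.6, 103 and 94.9 CPM. *Fth1* was lowest in the *Fabp6*-led cells, at 3309, 3322 and 2779 CPM, and *Ftl1* in *LApc* ran from 1800 CPM there to 3139 CPM in the *Apoa4*-led cells.

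Enterocytes mature as they climb the villus and change along the length of the gut. The cells were therefore also divided into tertiles (groups of equal weight, low, middle and high) of a maturity score and of a region score. Neither score uses an iron gene. The maturity score includes *Ada*, among the 3 genes most similar to *Cybrd1* in pattern, so its tertiles are not independent of *Cybrd1*. The region score includes *Lct*, a leading gene of the *Apoa4*-led cluster where *Cybrd1* was highest, so its tertiles are not independent of that cluster. Of the enterocyte-like cells, 21.8% (WT), 42.6% (*LApc*) and 35.7% (*LApcL*) were in the high tertile of maturity, and 21.4%, 41.2% and 37.4% in the proximal tertile. The WT library thus held smaller shares of cells scored as mature and of cells scored as proximal. In the high tertile *Cybrd1* was at 3.47 (2.06 to 5.49), 311 (298 to 324) and 236 (221 to 251) CPM, and in the low tertile at 0.135, 4.84 and 3.52 CPM. In the proximal tertile it was at 1.03, 225 and 128 CPM and in the distal tertile at 0.373, 5.56 and 6.37 CPM. In every tertile both mutant libraries lay above WT. Set to a common mix of maturity tertiles, *Cybrd1* was at 1.31, 110 and 83.8 CPM, and to a common mix of region tertiles at 0.870, 98.2 and 67.0 CPM.

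Among cells that were both mature and proximal, 271 in WT, 900 in *LApc* and 311 in *LApcL*, *Cybrd1* was at 2.69, 414 and 303 CPM, *Slc11a2* at 26.5, 332 and 281 CPM, and *Slc40a1* at 55.7, 303 and 176 CPM. *Hmox1* was at 130 CPM (*LApc*) and 4.53 CPM (*LApcL*), with 0 UMIs in WT. Among the 9 combinations of tertiles these were the highest levels of the 4 genes in either mutant library. In WT *Cybrd1* was higher elsewhere, at 6.19 CPM (10 UMIs) in mature cells of the middle region. *Fabp6* UMIs were found in nearly all WT enterocyte-like cells, and only 95 cells (3.43%) had none, against 27.8% in *LApc* and 52.1% in *LApcL*. Among cells with none, *Cybrd1* had 0 UMIs in WT and was at 173 CPM (*LApc*) and 86.0 CPM (*LApcL*). The 0 in WT rests on 95 cells and allows up to 3 counts. Whether a cell shows no *Fabp6* UMI also depends on its depth, which was lowest in *LApc*.

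*Slc40a1* depended on maturity in opposite ways in the libraries. From the low to the high tertile it was at 53.5, 49.99 and 33.6 CPM in WT, at 43.0, 56.6 and 226 CPM in *LApc*, and at 36.9, 38.4 and 122 CPM in *LApcL*. In the low tertile WT was the highest library and in the high tertile the lowest. *Slc11a2* in WT was level across maturity, at 23.7, 27.0 and 23.3 CPM, and reached 237 CPM (*LApc*) and 180 CPM (*LApcL*) in the high tertile. *Fth1* depended on region in all 3 libraries, from 11889, 12126 and 8663 CPM in the proximal to 3704, 3505 and 2961 CPM in the distal tertile.

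**Figure D3:**
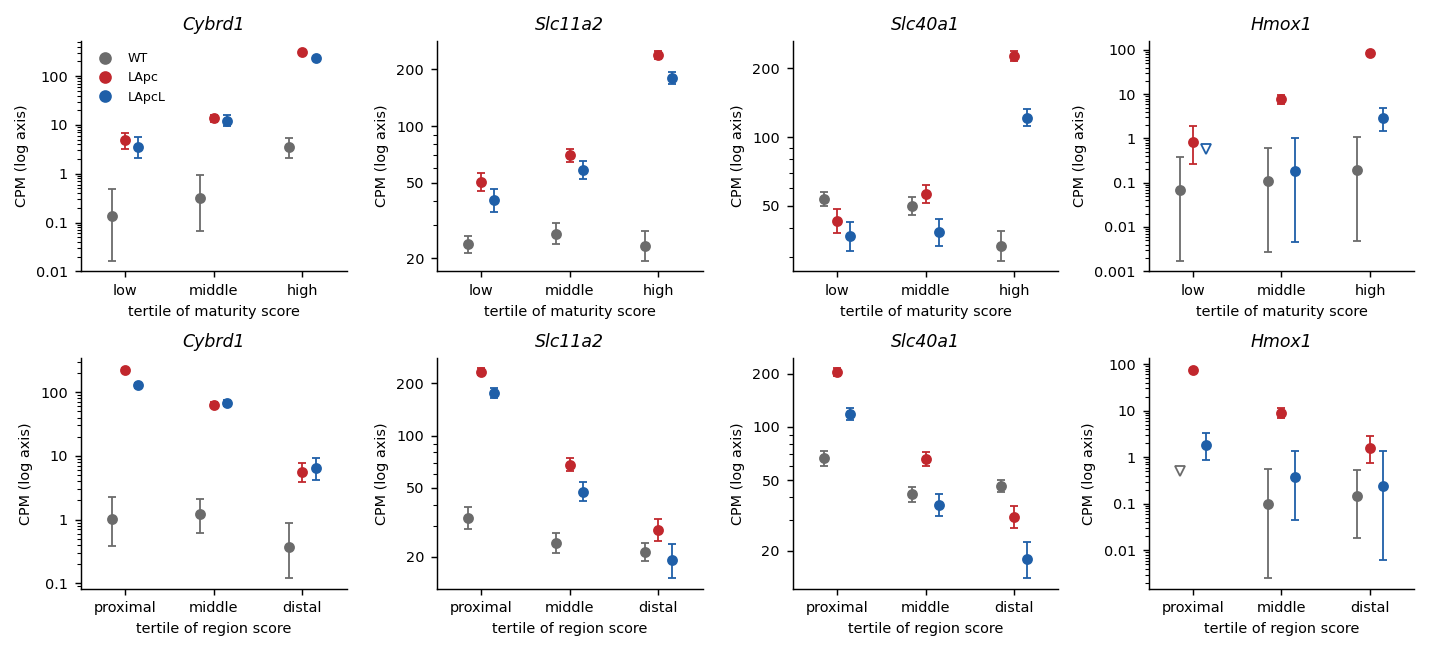
Level in CPM (log axis) of *Cybrd1*, *Slc11a2*, *Slc40a1* and *Hmox1* in enterocyte-like cells by tertile of the maturity score (upper row) and of the region score (lower row), 1 point per library with its exact 95% Poisson interval. Open triangles mark the upper limit for 0 UMIs. In *LApc* and *LApcL* the 4 genes are highest in mature and in proximal cells, while WT *Slc11a2* stays between 21.3 and 33.6 CPM.

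The *Cybrd1* UMIs of the *Apoa4*-led cluster came from few cells. At least 1 UMI was seen in 8 of 707 cells (1.13%) in WT, 262 of 1256 (20.9%) in *LApc* and 85 of 500 (17.0%) in *LApcL*. The tenth of cells with most held 87.6% of the *Cybrd1* UMIs in *LApc* and 93.3% in *LApcL*, and single cells had up to 5, 50 and 48. So within 1 cluster most cells of the mutant libraries had none while some were rich in it. The *LApc* cells with a UMI lay in the proximal tertile in 80.9% of cases, against 71.4% of those without, and had a median of 4563.5 UMIs against 4625.5, with a mitochondrial share of 12.4% against 11.3%. In *LApcL* the proximal shares were 67.1% and 59.3%, and in WT, with 8 such cells, 25% and 58.9%.

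Cells of this cluster were thinned to 3000 UMIs each and grouped by *Cybrd1* UMIs, which gave 862, 78 and 123 cells with 0, 1 to 2 and 3 or more in *LApc* and 420, 25 and 44 in *LApcL*. *Slc40a1*, *Slc11a2* and both ferritin genes were higher where *Cybrd1* was seen. The share over all genes was not computed for these groups, so the rise is not read as particular to iron genes. *Slc40a1* in the 3 groups was at 81.6, 774 and 1333 CPM in *LApc* and at 41.3, 347 and 1038 CPM in *LApcL*. *Slc11a2* was at 169, 765 and 848 CPM in *LApc* and at 64.3, 453 and 1220 CPM in *LApcL*. The exporter and the importer were thus found in the same cells as the reductase in both mutant libraries. *Fth1* was at 8616, 23111 and 30854 CPM in *LApc* and 4808, 12107 and 25265 CPM in *LApcL*, and *Ftl1* ran from 2982 to 4604 CPM and from 2132 to 2727 CPM. *Hmox1* was at 36.3, 214 and 509 CPM in *LApc*, and in *LApcL* at 2.38, 0 and 37.9 CPM on 3, 0 and 5 UMIs. *Heph* was at 150, 158 and 201 CPM in *LApc* and 149, 147 and 159 CPM in *LApcL*, and its intervals overlapped in both libraries, as did those of *Tfrc*. In each case these cells come from 1 library of 1 mouse, and the groups are a description of it.

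**Figure D4:**
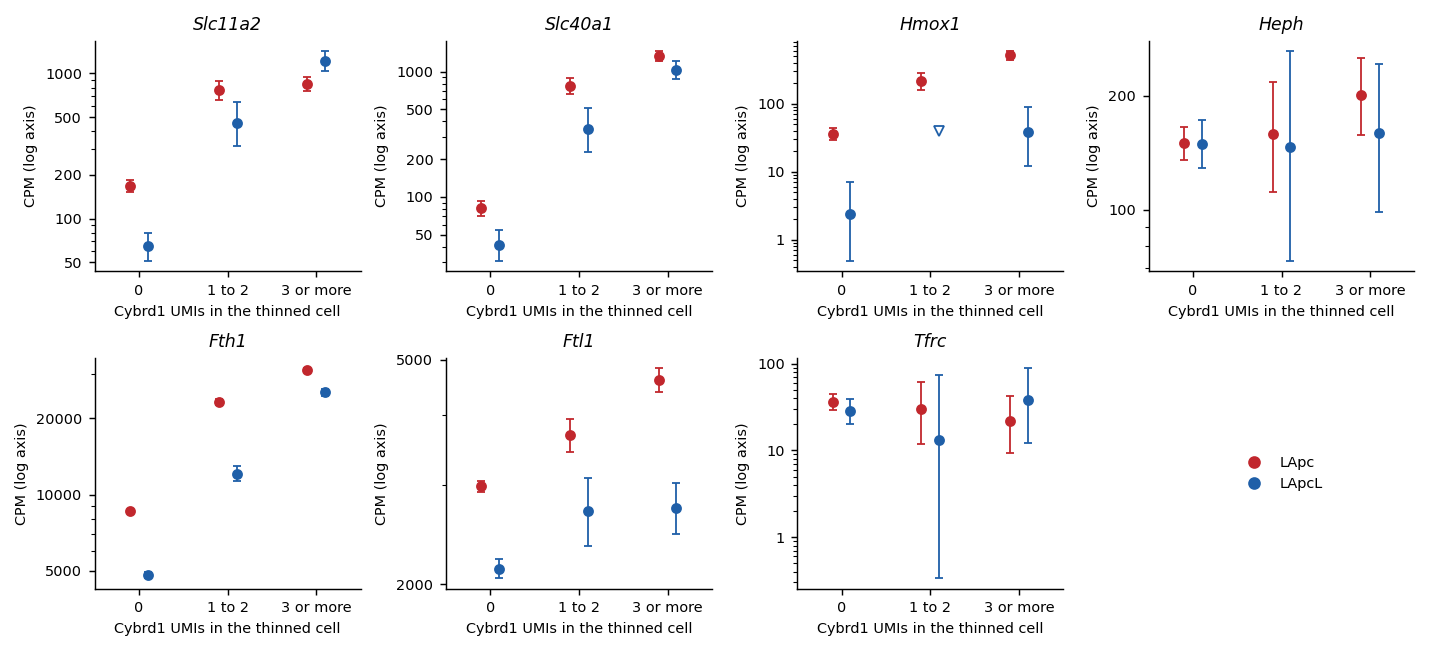
Level in CPM (log axis) of 7 iron genes in *Apoa4*-led enterocyte-like cells of *LApc* and *LApcL*, each thinned to 3000 UMIs and grouped by its own *Cybrd1* UMIs, with exact 95% Poisson intervals over the pooled UMIs. The open triangle marks the upper limit for 0 UMIs. *Slc11a2*, *Slc40a1* and *Fth1* step up from cells without to cells with *Cybrd1*, while *Heph* in *LApcL* stays between 147 and 159 CPM.

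Adenoma-enriched cells of *LApc* and *LApcL* were compared next. These libraries differ in *Lef1* genotype but also in mouse and day, so the contrast does not isolate loss of *Lef1*. *Trf* was the one gene past 2-fold among the 6 that passed the filter, and it was lower in *LApcL*, where 6.43% of all genes tested were lower and 0.762% higher. *Trf*, which encodes the iron carrier transferrin, was at 76.0 CPM (70.6 to 81.6, 755 UMIs) in *LApc* and at 1.38 CPM (1.17 to 1.62, 151 UMIs) in *LApcL*. The log2 ratio of *LApcL* over *LApc* was -5.79 (-6.05 to -5.53). *Cybrd1* was at 16.2 CPM (13.8 to 18.9) in *LApc* and 27.4 CPM (26.4 to 28.4) in *LApcL*, the reverse of their order in enterocyte-like cells, with a log2 ratio of 0.76 (0.53 to 1.00). *Tfrc* was at 42.7 and 65.0 CPM, *Slc11a2* at 20.5 and 12.3 CPM, *Fth1* at 3609 and 2332 CPM and *Ftl1* at 2406 and 2197 CPM, the last with a log2 ratio of -0.13 that turned to 0.10 with TMM. The 3 genes that missed the filter, *Slc40a1*, *Heph* and *Hmox1*, had mean levels under 10 CPM, and *Slc40a1* and *Hmox1* were the lower in *LApcL*, with log2 ratios of -1.39 and -1.63. The median of the genes that passed was -0.38, beside -0.08 over all genes, and TMM scaling shifted this comparison by -0.23, with 22.2% in place of 10.6% of called genes higher.

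The 4 adenoma-enriched subclusters were led by *Atp4a*, *Wfdc18*, *Myl7* and the replication histone *Hist1h2ap*. *Trf* was at 128 CPM (119 to 138) in *Wfdc18*-led cells of *LApc*, at 40.9 CPM in *Hist1h2ap*-led, 31.1 CPM in *Myl7*-led and 6.89 CPM in *Atp4a*-led cells. In *LApcL* the same subclusters were at 3.64, 1.85, 0.344 and 1.05 CPM. *LApcL* lay below *LApc* in all 4, and the *Wfdc18*-led cells were the highest in both. In the *Atp4a*-led cells alone *Trf* had a log2 ratio of -2.71 but missed the filter on low values, which left 0 members past 2-fold. *Cybrd1* was near equal in *Wfdc18*-led cells, at 18.01 CPM (*LApc*) and 17.8 CPM (*LApcL*), and differed most in *Myl7*-led cells, at 16.3 CPM (10.3 to 24.4, 136 cells) and 47.9 CPM (45.4 to 50.4, 2191 cells). *Tfrc* in the *Myl7*-led cells was at 42.4 and 95.0 CPM, so that 3 members were past 2-fold there. The mix of subclusters differed between the libraries, with 706 of the *LApc* cells and 1633 of the *LApcL* cells in the *Wfdc18*-led one.

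Values of other cell types and of cell state stood beside the *Trf* difference. The 6 stromal markers summed to 197 CPM (*LApc*) and 2.41 CPM (*LApcL*) adenoma-enriched cells, of which *Vim* (vimentin) made up 192 and 1.25 CPM, while *Col1a1* was at 0 in both and *Col1a2* had 0 and 1 UMIs. Markers of several other epithelial types were also lower in *LApcL*. The 9 enteroendocrine genes summed to 752 and 94.7 CPM, all 9 with UMIs in both libraries. The 8 goblet genes summed to 3285 and 1259 CPM, the 16 enterocyte genes to 3695 and 1524 CPM, and the 7 tuft genes to 82.0 and 28.0 CPM. The 7 Paneth genes were near equal, at 1798 and 1750 CPM. The 8 macrophage genes summed to 10.4 and 3.13 CPM. The 9 dissociation stress genes summed to 843 and 385 CPM, and median UMIs per cell were 7579.5 and 11508.5. Their part in the difference was not tested.

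**Figure D5:**
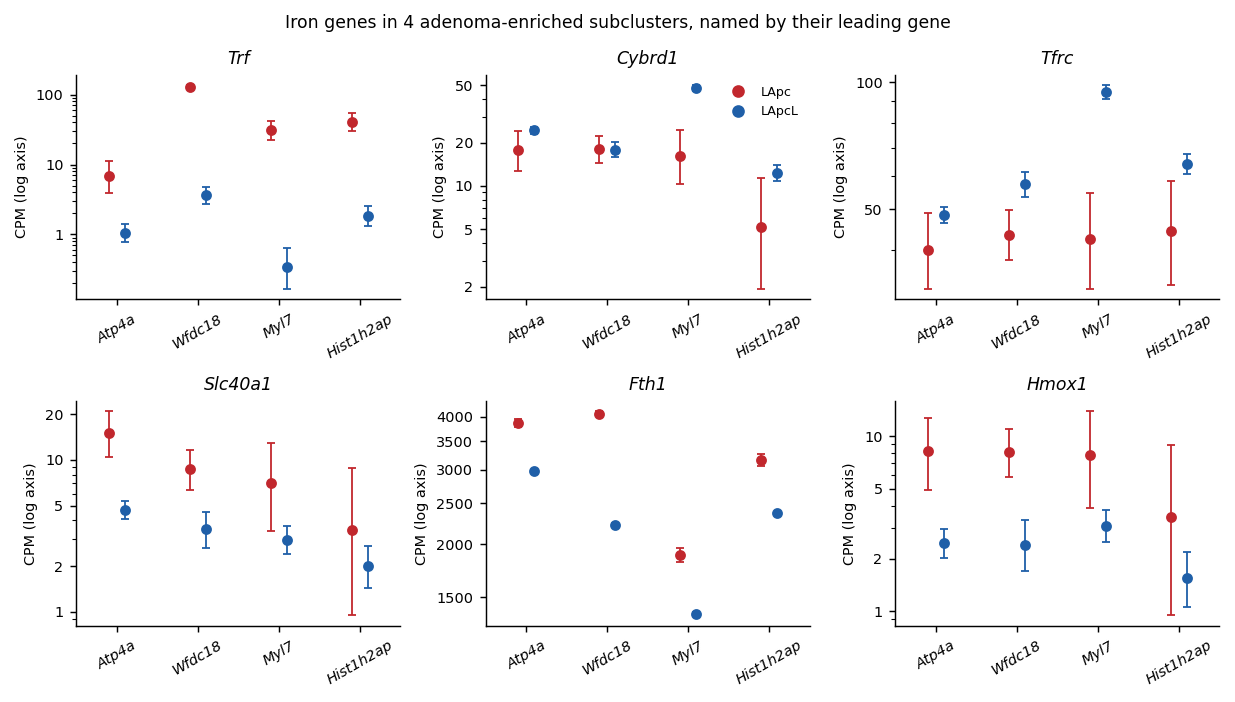
Level in CPM (log axis) of 6 iron genes in the 4 adenoma-enriched subclusters of *LApc* and *LApcL*, each named by its leading gene, with exact 95% Poisson intervals. *Trf* of *LApc* exceeds *LApcL* in all 4 subclusters, and *Cybrd1* and *Tfrc* of *LApcL* exceed *LApc* most in the *Myl7*-led one.

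Against enterocyte-like cells of the same library, adenoma-enriched cells held less of the absorptive machinery. In *LApc* all 9 genes passed the filter, 6 were past 2-fold lower, where 13.3% of all genes were, and *Trf* alone was higher, where 29% were. In *LApcL* 5 of 7 were past 2-fold lower (12.8% of all genes) and 0 higher (18%). The median log2 ratios were -2.07 and -1.41, beside 0.46 and 0.28 over all genes. TMM scaling shifted these comparisons by 0.71 and 0.31 and turned the split of called genes, of which 34.6% in place of 68.6% and 38.6% in place of 58.4% were then higher, and with it 8 and 5 members were past 2-fold. *Slc40a1* was at -3.53 (-3.85 to -3.23) in *LApc* and -4.11 (-4.28 to -3.94) in *LApcL*. *Heph* was at -3.76 and -2.82, the lowest of the genes in *LApc*, *Slc11a2* at -2.54 and -2.82, *Cybrd1* at -2.74 and -1.41, and *Fth1* at -1.14 and -1.27. Importer, exporter and heavy chain thus lay lower in both libraries under both scalings. *Ftl1* was at 0.00 (-0.02 to 0.02) and 0.18 with the total as the scale and at -0.70 and -0.13 with TMM, so its direction follows the scaling. *Tfrc* missed 2-fold, at -0.88 and -0.19, except in *LApc* with TMM (-1.58). *Trf* was at 6.26 (5.65 to 6.95) in *LApc* and did not pass the filter in *LApcL*.

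Against the other Wnt/TA-like cells of the same library, which carry the same class label as the adenoma-enriched cells, *Cybrd1* was past 2-fold higher in both. It was at 16.2 against 5.53 CPM in *LApc* (log2 ratio 1.55, 1.16 to 1.95) and at 27.4 against 4.23 CPM in *LApcL* (2.70, 2.31 to 3.12). In *LApc* 2 of 7 genes were past 2-fold higher, the other being *Trf* at 4.25 (3.88 to 4.65), and 1 was lower, *Heph* at -1.42 (-1.82 to -1.03), where 12.6% of all genes were higher and 4.95% lower. In *LApcL* 1 of 6 was higher and 0 lower (5.86% and 3.58% of all genes). *Tfrc* was lower by the same amount in both, at -0.57, with 42.7 against 63.2 CPM and 65.0 against 96.3 CPM. *Ftl1* was at 0.66 and 0.70, and *Slc11a2* at 0.05 and -0.14 with intervals that include 0. The median of the genes that passed was 0.42 in *LApc* and -0.04 in *LApcL*, beside 0.18 and 0.17 over all genes, and with TMM, which shifted the comparisons by 0.26 and 0.15, 54.8% in place of 71.8% and 51.6% in place of 62.1% of called genes were higher. Immune markers stood beside the *LApc* values: in its other Wnt/TA-like cells the 8 T cell genes summed to 78.0 CPM and the 8 macrophage genes to 47.7 CPM, with *Lyz2* at 18.4 CPM, against 13.8 and 1.196 CPM in *LApcL*. Their part was not tested.

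Free RNA in droplets gives UMIs in cells that do not express a gene, so shares of cells with a UMI were set beside goblet-like cells, after thinning each cell to 3000 UMIs. *Cybrd1* was seen in 0.181% of WT enterocyte-like cells (0.0587 to 0.421), 7.72% (6.82 to 8.70) in *LApc* and 5.31% (4.29 to 6.49) in *LApcL*, and without thinning in 0.542%, 10.1% and 8.42%. In goblet-like cells it was seen in 0.0796%, 1.32% and 2.71%. The WT enterocyte share overlapped its background, and the mutant shares lay above theirs. Adenoma-enriched cells were at 3.93% (2.91 to 5.17) in *LApc* and 6.89% (6.38 to 7.43) in *LApcL*, and other Wnt/TA-like cells, at 1.69% and 1.91%, overlapped the goblet-like share. Thinning left out 325 *LApc* and 16 *LApcL* enterocyte-like cells, and median depths were 6203 against 5134.5 UMIs for enterocyte-like and goblet-like cells of *LApc* and 8130.5 against 6740 in *LApcL*. As another measure of free enterocyte RNA, *Cybrd1* UMIs per 1000 *Apoa4* UMIs were 16.9 in enterocyte-like, 14.9 in goblet-like, 17.4 in other Wnt/TA-like and 47.1 in adenoma-enriched cells of *LApc*. In *LApcL* they were 22.2, 48.0, 48.1 and 320. The ratio in goblet-like cells was thus near that of the enterocytes in *LApc* and above it in *LApcL*, and the ratio in adenoma-enriched cells was above both in each library. Paneth-like cells were at 50.9 (*LApc*) and 129 (*LApcL*), so in *LApc* a ratio this high was not particular to adenoma-enriched cells.

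The same shares for *Hmox1* were 0% of 2768 WT enterocyte-like cells, which allows up to 0.108%, 4.28% in *LApc* and 0.413% in *LApcL*, beside 0.119%, 1.17% and 0.312% of goblet-like cells. The *LApcL* share could not be told from background. *Trf* was seen in 10.1% (8.44 to 11.9) of *LApc* adenoma-enriched cells and 0.384% (0.268 to 0.534) of those of *LApcL*, beside 0.439% and 0.208% of goblet-like cells, so the *LApcL* share could not be told from background either. Of all *Cybrd1* UMIs, enterocyte-like cells held 84.4% in *LApc* and 25.0% in *LApcL*, where adenoma-enriched cells, which held 70.6% of all UMIs, had 69.6%.

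Of 41 other genes of iron handling in the list used, 39 could be matched by symbol, and *Flvcr1* and *Flvcr2* were not used here. In enterocyte-like cells 0 of the 23 that passed the filter were past 2-fold in any of the 3 comparisons, with median log2 ratios of 0.05, 0.08 and -0.10. In adenoma-enriched cells 3 of 26 were lower in *LApcL* and 0 higher, where 6.43% of all genes were lower and 0.762% higher. *Lcn2*, which binds iron-loaded siderophores of bacteria, was at 217 CPM (*LApc*) and 0.538 CPM (*LApcL*) (log2 ratio -8.66, -9.06 to -8.28). *Hif1a*, a subunit of the hypoxia-inducible factor, was at 88.9 and 27.4 CPM (-1.70). *Hamp*, the hormone hepcidin that lowers ferroportin, was at 21.4 and 9.07 CPM (-1.24). *Hamp* had 0 UMIs in *LApc* enterocyte-like cells, so the adenoma-enriched level there was at least 7.31 higher on the log2 scale against the limit of 3 counts, and it was at 0.0643 CPM in other Wnt/TA-like cells.

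Between adenoma-enriched and enterocyte-like cells, 8 of 27 other iron genes were past 2-fold higher and 5 lower in *LApc*, and 4 of 24 each way in *LApcL*. Over all genes 29% were higher and 13.3% lower in *LApc*, and 18% and 12.8% in *LApcL*, so these shares were near the background. *Slc46a1*, which carries folate and heme, was at 7.65 against 58.3 CPM in *LApc* and 3.83 against 32.8 CPM in *LApcL*. *Epas1*, which encodes Hif-2α, the factor known to drive *Cybrd1* and *Slc11a2* in enterocytes, was at 2.62 against 19.2 CPM in *LApc*. *Slc39a8*, a zinc, manganese and iron importer, went the other way, at 21.9 against 3.46 CPM and 22.9 against 6.52 CPM. Against other Wnt/TA-like cells 4 of 26 were higher in *LApc* and 0 of 24 in *LApcL*, with 0 lower in both (12.6% and 5.86% of all genes higher).

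Because several iron genes are targets of hypoxia-inducible factors, 9 other targets of these factors were counted. In enterocyte-like cells 6 of 8 were past 2-fold higher for *LApc* over WT, with a median log2 ratio of 1.37, beside 1.74% and a median of -0.05 over all genes. *Bnip3*, which serves mitophagy, was at 5.86 CPM in WT and 28.5 CPM in *LApc*. *Ankrd37* was at 9.52 and 45.4 CPM, the prolyl hydroxylase gene *Egln3* at 15.1 and 49.3 CPM, and *Vegfa*, the angiogenic factor, at 8.19 and 24.4 CPM. *Ndrg1* (log2 ratio 1.16) and *Pdk1* (1.09) were the remaining ones. For *LApcL* over WT 1 of 7 was higher, *Ankrd37* at 27.0 CPM (1.51), and for *LApcL* over *LApc* 1 of 9 was lower, *Bnip3* at 12.0 CPM (-1.24). The medians of these comparisons were 0.68 and -0.61, beside 0.02 and 0.05 over all genes. In adenoma-enriched cells 2 of 9 were lower in *LApcL*, *Egln3* (27.0 against 63.3 CPM) and *Bnip3* (35.0 against 81.8 CPM), where 6.43% of all genes were lower. Against other Wnt/TA-like cells 6 of 9 were higher in *LApc* and 5 of 9 in *LApcL* (12.6% and 5.86% of all genes), with *Bnip3* at 4.53 and 3.11 and *Egln3* at 4.09 and 3.27. Against enterocyte-like cells 2 of 9 were higher in each library (29% and 18% of all genes). Of the factors themselves, *Epas1* was at 10.2 (WT), 19.2 (*LApc*) and 12.2 (*LApcL*) CPM in enterocyte-like cells. *Hif1a* was at 21.2, 32.0 and 25.5 CPM there, and neither was past 2-fold between the libraries. The part of these factors in the differences of the iron genes was not tested.

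Genes with the most similar pattern were ranked by Pearson correlation of log2(CPM + 10) over 31 units, each 1 cluster or subcluster of 1 library, among 4979 genes. The units share libraries, depth and cell types, so the values are a description. For *Cybrd1* they were *Car2* (0.83), a carbonic anhydrase, *Slc11a2* itself (0.80) and *Ada* (0.79), adenosine deaminase of the villus tip. *Ada* in *Apoa4*-led cells was at 330, 1126 and 1902 CPM in WT, *LApc* and *LApcL*, and *Car2* at 32.8, 90.8 and 84.3 CPM. For *Slc40a1* they were *Alpi* (0.94), intestinal alkaline phosphatase, *Btnl2* (0.94) and *Cyp3a13* (0.93). For *Tfrc* they were *Nudt19* (0.94), *Cluh* (0.93) and *Idh3b* (0.91), the last a subunit of a mitochondrial enzyme. For *Trf* they were *Spock2* (0.94), *Wif1* (0.92), a secreted Wnt inhibitor, and *Vim* (0.88).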

How the data were processed

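The authors quantified the 3 droplet libraries with Cell Ranger 2.1.1 on mm10 (GRCm38), per the labels. The deposited matrices hold counts of UMIs for each gene in each barcode, with no normalization, and the authors' cell annotation was not used here, so cell classes were rebuilt. Barcodes in the outer 1% of genes detected and those above 20% mitochondrial UMIs were removed, as were the highest doublet scores (Scrublet in scanpy 1.11.5) at the rate expected from 0.8% per 1000 barcodes, and 10 barcodes above 1% haemoglobin UMIs, a limit set after a cluster had been seen. That left 10136, 9598 and 14389 cells with 120983137, 62449283 and 155384702 UMIs. The libraries were integrated and clustered with Seurat 5.3.0 (R 4.3.3) at resolution 0.2, and clusters were named "X-like" where at least 3 markers were raised 1.5-fold and none of another class led. The numeric limits of that rule were set after clusters had been seen. Wnt/TA-like cells were subclustered (leidenalg 0.10.2, resolution 0.4) after a mutual-nearest-neighbour correction, and those to which WT added less than 10%, with libraries weighted equally, are called adenoma-enriched. A subcluster of 51, 167 and 241 cells led by Paneth genes stayed unnamed and entered neither class.

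UMIs were summed per library and class. CPM carry exact Poisson intervals, log2 ratios an exact binomial interval conditional on the sum, and shares of cells a Clopper-Pearson interval, each at 95%. A count of 0 was given a limit of 3 counts. No test could be run with 1 library per group. Before shares were counted, cells were thinned to 3000 UMIs. The ratio step was tested on simulated counts. TMM factors came from edgeR 4.0.16 as an alternative scaling only. The maturity score was the mean log level of *Ada*, *Nt5e*, *Slc28a2*, *Apoa4*, *Apob*, *Klf4* and *Krt20* minus that of *Nlrp6*, *Il18*, *Ccl25* and *Lypd8*. The region score was that of *Fabp6*, *Slc10a2*, *Slc51a*, *Slc51b* and *Osr2* minus that of *Gata4*, *Pdx1*, *Onecut2*, *Lct* and *Fabp1*. Both were cut into tertiles over the 3 libraries at equal weight, and 387 to 703 cells per library lay near a cut. The genes, lists and alternatives were chosen with earlier results of these data known. All 9 members were named, of the other iron genes and hypoxia targets at most the 6 largest per comparison past 2-fold with an interval off 0, and the 3 most similar genes for *Cybrd1*, *Slc40a1*, *Tfrc* and *Trf* among genes of at least 50 CPM in a unit of at least 50 cells.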

Additional observations from a re-analysis of the deposited data

Results flagged for a closer look

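Barcodes above the mitochondrial limit, 62 in WT, 2342 in *LApc* and 413 in *LApcL*, were left out of every comparison, and the iron genes in them lay above WT for some and below it for others. *Cybrd1* was at 439 CPM in those of *LApc* and 250 CPM in those of *LApcL*, against 8.54 CPM in WT on 4 UMIs. *Slc11a2* was at 288 and 222 CPM against 36.3 CPM. *Slc40a1* was at 178 CPM in *LApc* and 93.5 CPM in *LApcL* against 49.1 CPM in WT. *Hmox1* was at 19.8 CPM in *LApc* and 3.16 CPM (5 UMIs) in *LApcL*, with 0 UMIs in WT. *Heph* (134 CPM in WT, 108 in *LApc*, 73.3 in *LApcL*), *Fth1* (4754, 4748 and 2692) and *Ftl1* (1391, 1112 and 886) were not higher in either, and *Tfrc* (46.9, 40.0 and 67.6) was higher in *LApcL* alone. *Trf* had 0 UMIs in WT and was at 4.37 CPM (27 UMIs) in *LApc* and 2.53 CPM (4 UMIs) in *LApcL*. The WT barcodes held only 468645 UMIs of all genes, so each 0 there, which allows up to 3 counts, is a loose limit. No difference from WT is read for *Trf*, nor for *Hmox1* in *LApcL*. The barcodes above the mitochondrial limit had medians of 6945, 2337 and 3408 UMIs, and what they are was not tested.

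*Hmox1* had a log2 ratio of adenoma-enriched over enterocyte-like cells of -2.07 in *LApc* and 1.48 in *LApcL*, the latter under the filter on low values. *Trf* had a log2 ratio of adenoma-enriched over other Wnt/TA-like cells of 4.25 in *LApc* and -0.80 in *LApcL*, the latter also under the filter. Each pair of directions is opposite, and the difference between the libraries was not tested.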

How the results depend on the processing

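No paired analysis was possible because each group has 1 sample. Of 846 log2 ratios of the members under alternatives, 524 lay within the interval of the reported one. The sign changed in 45, of which 43 were ratios not called past 2-fold, such as *Slc40a1*, *LApcL* over WT, in *Fabp6*-led cells (-1.45), *Cybrd1*, *LApcL* over *LApc*, at a mitochondrial limit of 10% (0.19), and *Ftl1* with TMM. The 2 called ones were *Slc40a1*, *LApc* over WT, in *Fabp6*-led cells (-0.76) and *Slc11a2*, *LApcL* over WT, in the same cells (-0.078). The count of 4 members for enterocyte-like cells of *LApc* over WT became 2 at a mitochondrial limit of 10%, 1 in *Reg1*-led and 0 in *Fabp6*-led cells. The count of 2 for *LApcL* over WT became 1 in *Reg1*-led cells and 1 in *Fabp6*-led cells, where it was *Slc40a1*, lower. The count of 1 for *LApcL* over *LApc* became 0 at the 10% limit, 0 in *Reg1*-led, 0 in *Fabp6*-led cells and 2 without *Fabp6* UMIs. In adenoma-enriched cells the count of 1 became 3 without the filter on low values, 2 with doublets removed at 2 times the rate, 0 in *Atp4a*-led and 3 in *Myl7*-led cells, and against other Wnt/TA-like cells of *LApcL* 1 became 2 without the filter. Single clusters were chosen after seeing the data, they hold fewer UMIs, and the other causes were not tested.

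Over all genes, the counts past 2-fold of 196, 199 and 173 in enterocyte-like cells became 480, 327 and 310 without *Fabp6* UMIs, 540, 430 and 677 in *Apoa4*-led cells, and 3592, 3265 and 4019 without the filter. *LApcL* over WT became 345 in *Fabp6*-led cells and *LApcL* over *LApc* 108 with classes by marker score. In adenoma-enriched cells 566 became 995 in cells without *Apoa4* or *Fabp6* UMIs, 329 in *Atp4a*-led cells and 6785 without the filter, and in the 4 comparisons between classes 3298, 2313, 1392 and 701 became 9483, 9537, 5805 and 6853 without it. With 1 mouse per genotype and the lowest depth in *LApc*, no value carries the spread between mice.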

Other observations

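Some iron transcripts stood out in cells outside the comparisons. In WT, 77 of the 123 *Cybrd1* UMIs lay in Paneth-like cells (3.99 CPM, 3.15 to 4.99), against 11.1 CPM (*LApc*) and 10.1 CPM (*LApcL*), and Paneth-like cells of WT had a median of 43777.5 UMIs. *Trf* was at 13.8, 39.6 and 17.3 CPM in enteroendocrine-like cells of WT, *LApc* and *LApcL*, the hormone-secreting cells of the gut, above every other normal class of WT. *Heph* in tuft-like cells, the chemosensory cells, was at 69.4, 112 and 43.4 CPM, the last on 72 UMIs, and *Hmox1* there was at 6.04, 18.7 and 5.42 CPM on 14, 7 and 9 UMIs. *Ftl1* was higher in tuft-like cells than in enterocyte-like cells of each library, at 2718, 3447 and 2855 CPM. The unnamed subcluster of Wnt/TA-like cells led by Paneth genes had *Cybrd1* at 109 CPM (84.2 to 140) in *LApc* on 64 UMIs and 20.3 CPM in *LApcL*, with median depths of 2860 and 5963 UMIs.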
